A study of Rattus norvegicus with 14 samples.

Results

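The ventricular myosin of the rat was followed over its heavy chain genes Myh6 and Myh7, its light chain genes Myl2 and Myl3, and Mybpc3, which encodes the myosin binding protein of the cardiac thick filament. A probe set, a group of short DNA probes on the array, was taken when the array's annotation gave it exactly 1 gene symbol and that symbol was 1 of these 5. By this rule 8 of 31042 probe sets were members, for 5 of 14217 genes named on the array: 2 each for Myh6, Myh7 and Myl2, and 1 each for Myl3 and Mybpc3. RNA came from the left ventricle of male Wistar rats 16 weeks after a tail vein injection. Controls (n = 7) received saline, and diabetic rats (n = 7) received streptozotocin at 60 mg/kg, a toxin of the pancreatic beta cells that make insulin. Each animal was hybridised to 1 Affymetrix whole-genome rat array, and 1 description field of the diabetic samples names saline where their titles, source and protocol name diabetes and streptozotocin. The labels used here give no age for the animals. Signals are log2 values after scaling and quantile normalisation, and a difference is diabetic minus control on that scale.

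Myosin heavy chain is the motor of the thick filament. Myh6 encodes the fast alpha chain, which dominates the adult rodent ventricle, and Myh7 encodes the slow beta chain, which dominates before birth and returns under thyroid hormone deficiency, pressure overload and insulin-deficient diabetes. Thyroid hormone raises transcription of Myh6 and lowers that of Myh7. Myl2 encodes the regulatory and Myl3 the essential light chain that wrap the lever arm of the motor, and Mybpc3 binds the filament and limits how heads reach actin.

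Myh6 and Myh7 lie on rat chromosome 15 on the same strand. Windows at their annotated starts (RefSeq, GRCr8, 250 bases before to 50 after) are shown because these are the genes whose group means differed in opposite directions. Capitals mark matches to the 4 motifs searched on both strands. These were the MCAT element CATTCC, bound by TEAD factors, and AGGTCA, a single half-site of the thyroid hormone response element. The others were the basal promoter element TATAAA and AGATAA, a site of GATA factors. Only these exact letters were searched, and other forms of a site were not counted. The Myh6 window is chr15:32411648-32411947 and the Myh7 window chr15:32438145-32438444, both on the minus strand.
Myh6: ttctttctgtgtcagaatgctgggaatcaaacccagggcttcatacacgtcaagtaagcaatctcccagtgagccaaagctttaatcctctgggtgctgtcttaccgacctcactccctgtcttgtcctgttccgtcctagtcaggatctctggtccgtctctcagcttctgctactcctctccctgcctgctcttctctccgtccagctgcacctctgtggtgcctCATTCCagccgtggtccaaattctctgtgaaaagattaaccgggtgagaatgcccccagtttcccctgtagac
Myh7: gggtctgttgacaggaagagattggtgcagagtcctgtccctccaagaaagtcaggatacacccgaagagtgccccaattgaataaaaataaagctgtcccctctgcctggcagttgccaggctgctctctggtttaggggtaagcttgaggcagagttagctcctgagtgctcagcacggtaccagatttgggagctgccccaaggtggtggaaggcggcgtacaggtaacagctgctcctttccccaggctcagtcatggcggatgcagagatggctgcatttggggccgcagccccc
The Myh6 window holds 1 match, a CATTCC that begins 23 bases before the start, and the Myh7 window holds none. The end of the Myh7 window reads as the start of the coding sequence, so the window may not cover the promoter. The annotated starts were not checked against heart transcripts. A window without a match therefore does not show that the promoter lacks the motif. Of the windows of the same length over the annotated genes, 14.2% hold CATTCC, 16.2% AGGTCA, 14.2% TATAAA and 11.6% AGATAA. Windows were found for 4 of the 5 genes. The Myl3 window holds 2 matches to CATTCC and the Mybpc3 window no exact match to the 4 motifs.

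Each heavy chain gene also carries a microRNA within its span, and Myh7b, a related heavy chain gene, carries another. They are shown with the seed (bases 2 to 8) in capitals, to show which of them share it, from RefSeq, GRCr8; the array does not report the mature forms here.
rno-miR-208a-3p in Myh6, chr15:32395568-32395585, minus strand: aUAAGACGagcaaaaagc
rno-miR-208b-3p in Myh7, chr15:32421648-32421665, minus strand: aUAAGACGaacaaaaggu
rno-miR-499-5p in Myh7b, chr3:164570616-164570636, plus strand: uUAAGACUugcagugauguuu
The first 2 share the seed UAAGACG and differ at 3 of 18 positions. The third has the seed UAAGACU.

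Array quality was uneven in ways that touch the heavy chains. Array medians of the deposited intensity ran from 14.8 to 85.3. The arrays fell into 3 classes by their control probe sets, which are defined by these values and not by any label. Class A (2 control, 2 diabetic) had a high log2 ratio of the beta-actin 3' probe set to its 5' one, often read as a sign of shortened transcripts, of 1.41 to 1.71. Class B (2 and 2) had 0.67 to 0.84. Class C (3 and 3) had weak poly-A spike-ins and spanned 0.67 to 1.47. The same ratio for GAPDH was not raised in class A, at 0.17 to 0.34 against 0.21 to 0.25 in B and 0.26 to 0.56 in C. The defining transcripts of heart muscle were among the strongest signals in both groups, with Tnnt2 (troponin T) at a scaled intensity of 25921 to 40450.5 in control and 27598 to 43174 in diabetic arrays. The tissue was whole ventricle, so fewer cells of a type and less RNA per cell cannot be told apart.

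The fast heavy chain gene Myh6 was lower in the diabetic ventricle by both of its probe sets, by 1.17-fold on the brighter and 2.34-fold on the dimmer, though neither passed the test on group alone. On the brighter probe set the 7 control arrays had log2 signals from 14.92 to 15.13 with a median of 15.06, and the 7 diabetic arrays from 14.76 to 14.87 with a median of 14.80. The groups did not overlap after quantile normalisation. With scaling alone they did, at intensities of 26697 to 42322 in control and 23659 to 36986 in diabetic arrays. The probe set stood at rank 7 to 22 of all probe sets in control arrays and at rank 27 to 39 in diabetic arrays. The difference was -0.22 ± 0.09 (SE), an interval from 1.03 to 1.33-fold lower, and did not pass over all probe sets (limma adjusted p = 0.367). Taken alone, an exact two-sided permutation test of this probe set on the quantile normalised values gave p = 0.000583, the smallest that 7 against 7 arrays allow. Without quantile normalisation its unadjusted limma p was larger. It was 0.109 with scaling alone, 0.158 with array medians subtracted and 0.0644 with a loess normalisation.

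The dimmer Myh6 probe set ran from 12.63 to 14.26 in control arrays (median 14.07) and from 10.90 to 13.53 in diabetic arrays (median 12.80). Of the diabetic arrays 3 lay below every control. The difference was -1.22 ± 0.39 (SE; limma adjusted p = 0.222). The spread followed the array classes: the lowest 2 controls were the class A arrays, at 12.63 and 12.84, while the other 5 lay between 14.001 and 14.26. Within class A the difference was -1.38, in B -0.60 and in C -1.54, and the groups did not overlap in any of the 3 classes. By chance alone such separation has a probability of 0.333 in classes of 2 against 2 arrays and 0.1 in 3 against 3. Its share over all probe sets was not counted. The bright Myl2 probe set was also without overlap in class B, at a difference of 0.03.

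The slow heavy chain gene Myh7 was higher in the diabetic ventricle, by 1.31-fold on its brighter probe set and 2.12-fold on the dimmer, and again neither passed on group alone. The brighter one ran from 14.58 to 15.06 in control arrays (median 14.82) and from 15.03 to 15.32 in diabetic arrays (median 15.20). Of the diabetic arrays 6 lay above every control. Among all probe sets it ranked 11 to 64 in control arrays and 2 to 13 in diabetic arrays, so in diabetic animals Myh7 was among the strongest signals of the array. The difference was 0.39 ± 0.10 (SE; interval 1.13 to 1.52-fold; limma adjusted p = 0.0968), and the exact permutation p of this probe set alone was 0.00117. These values are after quantile normalisation. With scaling alone, intensities ran from 20578 to 36882 in control and from 29999 to 49757 in diabetic arrays. The unadjusted limma p was then 0.0218, against 0.00159 after quantile normalisation. With array medians subtracted it was 0.0145, and with a loess normalisation 0.00537.

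The dimmer Myh7 probe set ran from 11.64 to 13.40 in control arrays (median 12.94) and from 12.92 to 14.23 in diabetic arrays (median 14.10). Of the diabetic arrays 5 lay above every control. The difference was 1.09 ± 0.32 (SE; interval 1.32 to 3.42-fold; limma adjusted p = 0.170). Class A arrays were again the lowest of each group, at 11.64 and 11.73 in control and 12.92 and 13.00 in diabetic. The differences within classes A, B and C were 1.28, 1.40 and 0.75, with no overlap in any class, under the same limit of class size.

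**Figure D1:**
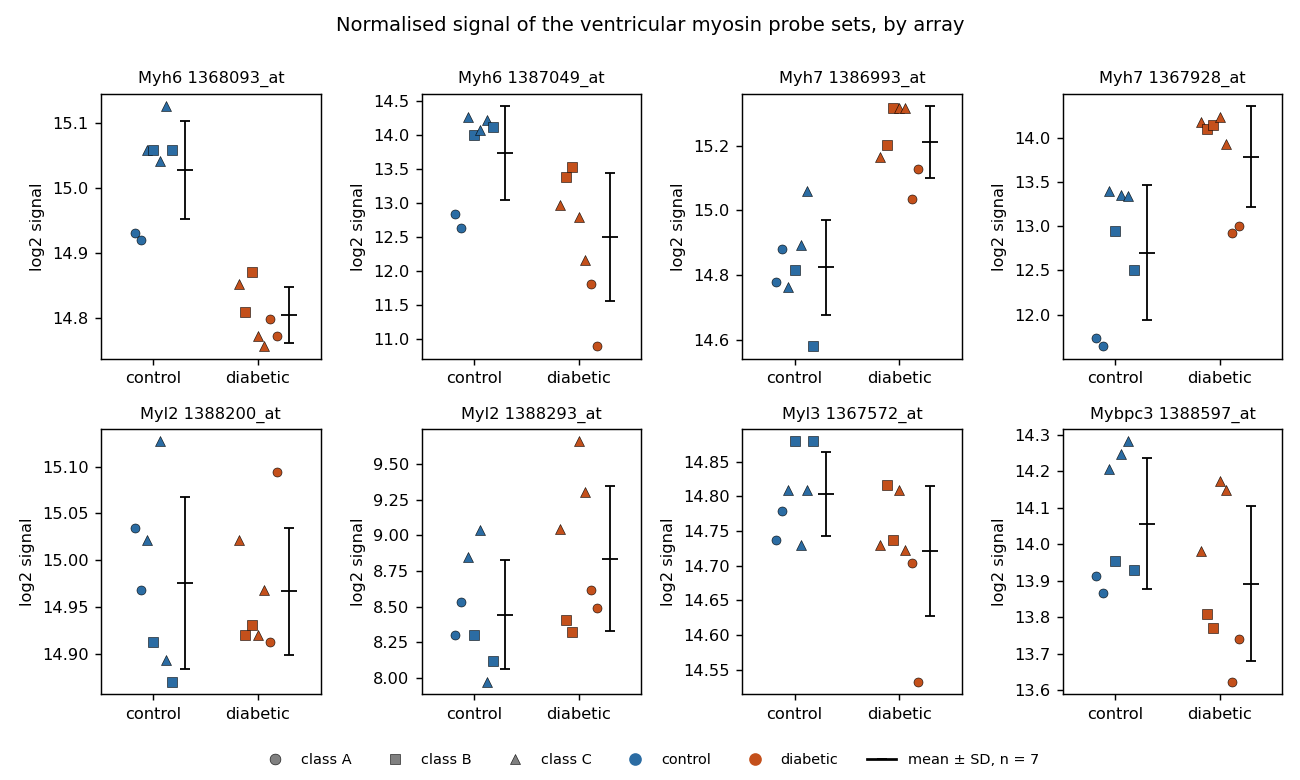
Log2 normalised signal (vertical axes, each with its own range) of the 8 myosin probe sets on each of 7 control and 7 diabetic arrays; symbols give the array class and bars the mean ± SD. Myh6 is lower and Myh7 higher in diabetic arrays, and the dimmer probe set of each heavy chain gene is lowest in class A.

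The call on the heavy chains depended on how the spread between arrays was modelled. In the fit on group alone 0 of the 8 probe sets were called, against 1.14% of all probe sets, and the 4 heavy chain probe sets had unadjusted p values from 0.00159 to 0.0201. With array class as a block the same differences were called for 3 of 8, against 2.08% of all: the dimmer of Myh6 (limma adjusted p = 0.00336), the brighter of Myh7 (0.0424) and the dimmer of Myh7 (0.000286). The brighter Myh6 probe set was not (0.168). With a variance prior that follows signal level and resists outliers, 2 of 8 were called against 1.74% of all, and these were the brighter ones, Myh6 (limma adjusted p = 0.0148) and Myh7 (0.00128). On the quantile normalised values groups failed to overlap for 1 of the 8, the brighter Myh6 probe set, against 1.2% of all probe sets. All 4 heavy chain probe sets kept their direction in each class, under each scaling and with each array left out.

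**Figure D2:**
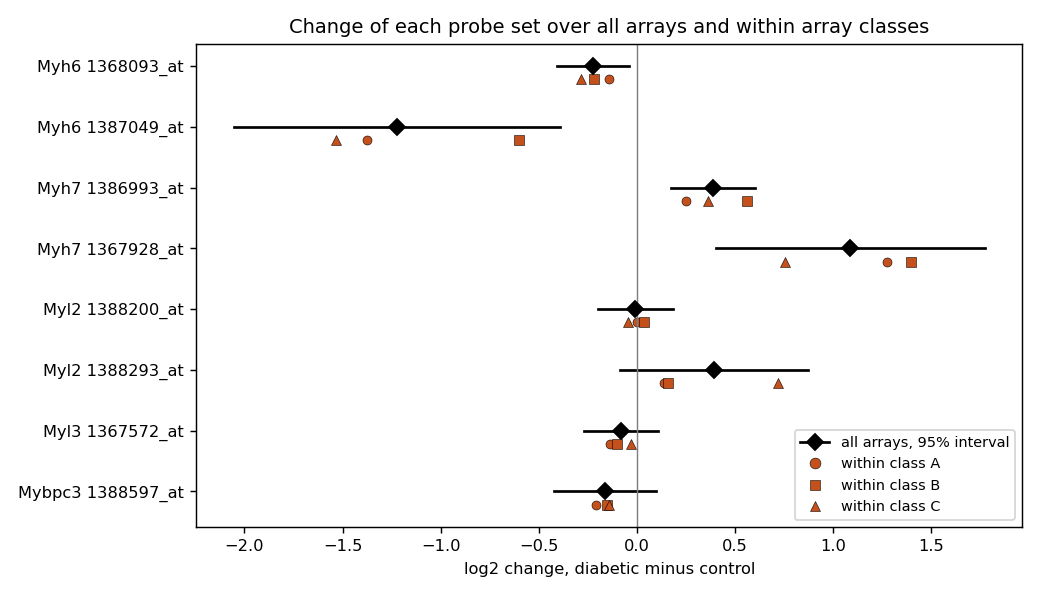
Log2 change, diabetic minus control, of the 8 probe sets over all arrays with 95% intervals from limma (diamonds and lines), and the differences within classes A, B and C (symbols below each line). The 4 heavy chain probe sets keep their side of 0 in every class, and the dimmer ones have the larger estimates.

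The dimmer heavy chain signals, and to a smaller extent those of the brighter Myh6 probe set and Myl3, were low on arrays with a high beta-actin ratio, and such arrays occurred in both groups. On the arrays with a log2 ratio of 0.67 to 0.99 (5 control, 4 diabetic), the dimmer Myh6 probe set lay between 14.001 and 14.26 in control and between 12.80 and 13.53 in diabetic arrays. On the arrays with a ratio of 1.41 to 1.71 (2 control, 3 diabetic) it lay between 12.63 and 12.84 in control and between 10.90 and 12.17 in diabetic arrays. The brighter Myh6 probe set followed the ratio too, at 15.04 to 15.13 against 14.92 to 14.93 in control and 14.77 to 14.87 against 14.76 to 14.80 in diabetic arrays. So did Myl3 in diabetic arrays, at 14.73 to 14.82 against 14.53 to 14.72. With this ratio as a covariate the difference of the dimmer Myh6 probe set was -1.10 (limma adjusted p = 0.00264) and that of the dimmer Myh7 probe set 1.17 (0.00710). The brighter Myh6 (-0.22, limma adjusted p = 0.298) and Myh7 (0.39, 0.0826) probe sets were not called with it. The part of transcript length in these signals was not tested further.

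**Figure D3:**
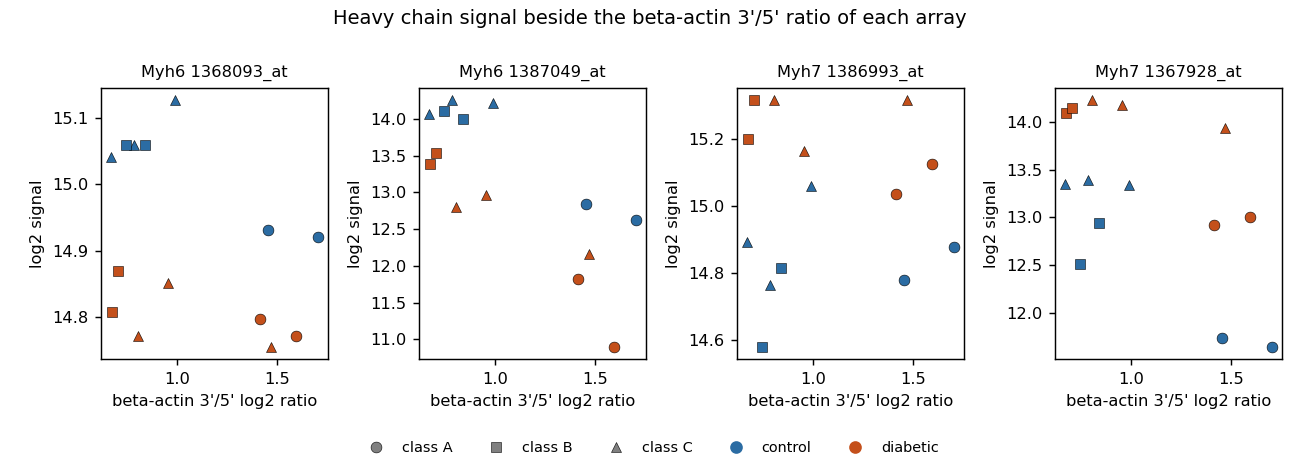
Log2 signal of the 4 heavy chain probe sets (vertical axes) against the log2 ratio of beta-actin 3' to 5' signal on the same array (horizontal axes), coloured by group with symbols for array class. For the dimmer probe set of each gene the class A arrays sit low in both groups, and control and diabetic arrays of like ratio lie apart.

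The balance of the heavy chains was read as the log2 ratio of Myh7 to Myh6 within each array, taken from the deposited intensities, so that scaling between arrays does not enter. Its level compares different probes and is no molar ratio, and only its difference between groups is read. For the brighter probe set of each gene it ran from -0.38 to -0.03 in control arrays (median -0.20) and from 0.21 to 0.64 in diabetic arrays (median 0.43). All 7 diabetic animals lay above all 7 controls, with a gap of 0.24. The mean was -0.20 ± 0.13 in control and 0.42 ± 0.13 in diabetic arrays (SD, n = 7), a difference of 0.62 or 1.54-fold (exact two-sided permutation p = 0.000583). The ratio draws on the same arrays as the single genes and is no further evidence beside them.

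The dimmer probe set of each gene gave a wider separation. It ran from -1.42 to -0.79 in control arrays (median -0.97) and from 0.63 to 2.13 in diabetic arrays (median 1.32), with a gap of 1.42 between the groups. The difference was 2.33 or 5.04-fold. The SD in control arrays was 0.21 for this ratio, against 0.69 for the log2 signal of the dimmer Myh6 probe set and 0.76 for that of Myh7. The mixed pairs differed by 1.62 (brighter Myh7 over dimmer Myh6) and 1.33 (dimmer Myh7 over brighter Myh6), each with 5 of 7 diabetic arrays above every control. Exact permutation p values were adjusted by Benjamini-Hochberg over the 4 pairs. The adjusted p was 0.00117 for the brighter pair and 0.00117 for the dimmer pair. It was 0.00408 for brighter Myh7 over dimmer Myh6 and 0.00233 for dimmer Myh7 over brighter Myh6.

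Within array classes the brighter ratio differed by 0.39 in A, 0.74 in B and 0.70 in C, and the dimmer by 2.71, 1.85 and 2.40. No class showed overlap between groups for any of the 4 pairs. Classes of 2 against 2 and 3 against 3 arrays cannot reach an exact p under 0.333 and 0.1.

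**Figure D4:**
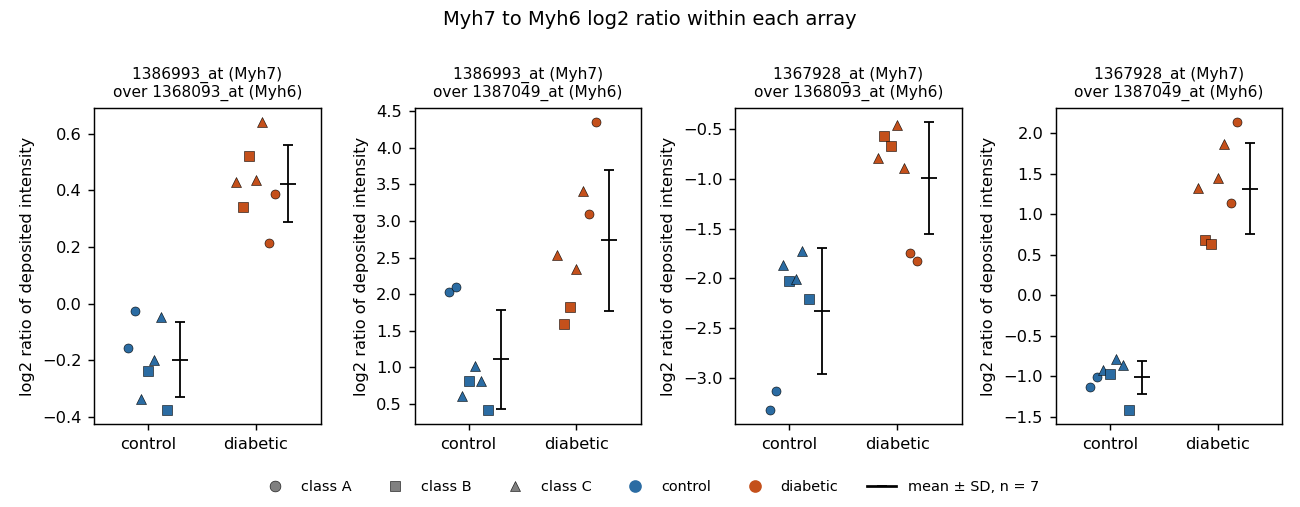
Log2 ratio of Myh7 to Myh6 deposited intensity on each array (vertical axes, each with its own range) for the 4 pairs of probe sets, by group, with array class as symbol and mean ± SD. The groups do not overlap for the first panel, which pairs the brighter probe sets (difference 0.62), and the last, which pairs the dimmer ones (2.33).

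The probe sets of each heavy chain gene thus differed in the size of the change. On each array the dimmer was set against the brighter: for Myh6 the log2 difference averaged -1.31 ± 0.59 in control and -2.31 ± 0.97 in diabetic arrays, and for Myh7 -2.13 ± 0.70 and -1.42 ± 0.51 (SD, n = 7). The brighter probe sets were among the strongest signals on every array. Several arrays share 1 normalised value there because quantile normalisation gives equal ranks the same value. Whether the signal of these probe sets was saturated was not tested. Scaling alone, without quantile normalisation, gave differences of -0.23 and 0.39 for the brighter Myh6 and Myh7 probe sets and -1.22 and 1.10 for the dimmer ones.

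Heavy chain genes are close copies, so probes can bind more than 1 of them. A pair of probe sets annotated to both Myh6 and Myh7 fell outside the rule. Of these 1 was 3.04-fold lower in diabetic arrays (13.17 to 13.97 in control and 11.14 to 12.48 in diabetic; limma adjusted p = 0.000572) with no overlap. The other ran from 14.55 to 15.03 in control and from 14.46 to 14.95 in diabetic arrays (difference -0.00 ± 0.11, SE). Myh1, a fast skeletal heavy chain, was annotated to 5 probe sets that moved in opposite directions. Its 1 lower probe set was 2.96-fold lower (11.47 to 12.64 in control, 9.76 to 11.25 in diabetic; limma adjusted p = 0.00529), without overlap. The other 4 probe sets of Myh1 were higher by 1.32 to 2.42-fold, and none of them was called on group alone. With array class as a block 3 of them were called, for 4 of 5 in all, against 2.08% of all probe sets. Other fast skeletal heavy chains were near the low end, with Myh2 at a scaled intensity of at most 144 and Myh4 at most 137. Which transcripts the Myh1 probe sets bound was not tested.

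The regulatory light chain gene Myl2 did not differ detectably on its bright probe set. Signals ran from 14.87 to 15.13 in control (median 14.97) and from 14.91 to 15.09 in diabetic arrays (median 14.93), and the groups lay over each other. The difference was -0.01 ± 0.09 (SE), an interval from 0.871 to 1.14-fold (limma adjusted p = 0.990). The second probe set of Myl2 was far dimmer, at 7.97 to 9.03 in control and 8.32 to 9.66 in diabetic arrays. Its difference was 0.39 ± 0.23 (SE; limma adjusted p = 0.638), with 0.14, 0.16 and 0.72 in classes A, B and C.

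The essential light chain gene Myl3 ran from 14.73 to 14.88 in control arrays (median 14.81) and from 14.53 to 14.82 in diabetic arrays (median 14.73). The difference was -0.08 ± 0.09 (SE), an interval from 0.828 to 1.08-fold (limma adjusted p = 0.861). Mybpc3 ran from 13.87 to 14.28 in control arrays (median 13.95) and from 13.62 to 14.17 in diabetic arrays (median 13.81). The difference was -0.16 ± 0.12 (SE; interval 0.745 to 1.07-fold; limma adjusted p = 0.748). Mybpc3 was highest in class C of both groups. Within each class every diabetic array lay below the controls, by 0.21, 0.15 and 0.14 in A, B and C. A single class this small often separates by chance, and the share of probe sets that separate in all 3 was not counted. With array class as a block Mybpc3 was not called (limma adjusted p = 0.359). On group alone, after quantile normalisation, the intervals of the 4 light chain and binding protein probe sets include no change. Those of the 4 heavy chain probe sets do not. These intervals are unadjusted, and 9.6% of all probe sets had an unadjusted limma p under 0.05. After adjustment none of the heavy chain probe sets passed on group alone.

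The wider myosin family and the thick filament were read from gene lists, each gene by its brightest probe set. Over all probe sets the median change was -0.00. Of 10 measured other heavy chain genes 0 were called (median 0.06; Myh8 0.58, Myh1 0.40, Myh11 0.25), and of 6 other light chain genes 0 (median 0.28; the atrial light chain Myl4 1.16 ± 0.73, SE, Myl1 0.34, Myl12a 0.14). Of 12 kinases and phosphatases of myosin and its binding protein 0 were called (median -0.02; Prkcd 0.42, Mylk2 -0.44, Rps6ka3 0.36). Of 6 genes of myosin folding and assembly 0 were called (median -0.01; Smyd1 -0.16, Smyd2 0.12, and Unc45b, a myosin chaperone, -0.05). Of 10 thick filament and M-band partners 0 were called (median -0.00; Trim63, a ubiquitin ligase of the thick filament, -0.39, Mybpc1 0.33, Mybpc2 -0.44). At an unadjusted limma p under 0.05 these lists held 1, 0, 2, 0 and 1 genes in that order, against 9.6% of all probe sets. With array class as a block Trim63 was called (limma adjusted p = 0.0266), against 2.08% of all probe sets. By brightest probe set, no other gene of these 5 lists was called with that block or with the trended prior. Dimmer probe sets of Myh1 were called with the block, as given above.

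Thin filament genes gave 2 calls of 12, both lower, against 1.14% of all probe sets. Lmod3, which lengthens actin filaments, fell by 0.74 ± 0.16 on the log2 scale (SE; limma adjusted p = 0.0341), and Tmod1, which caps them, by 0.41 ± 0.09 (0.0426). The Lmod3 call was lost for 10 and the Tmod1 call for 12 of the 14 leave-outs of 1 array (limma adjusted p reaching 0.0810 and 0.103). The other probe set of Lmod3 differed by -0.03.

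Of 33 regulators of heavy chain transcription 0 rose and 1 fell on group alone, against 1.14% of all probe sets called. Hopx, a homeodomain cofactor that restrains serum response factor in heart muscle, was 2.58-fold lower (log2 12.16 in control and 10.79 in diabetic, difference -1.37 ± 0.17, SE; limma adjusted p = 0.000270), with no overlap between groups, and was called whichever array was left out (highest limma adjusted p = 0.00102). The list median was 0.04. The next lowest p values were those of Smarca4, the ATPase Brg1 of a chromatin remodelling complex (-0.49 ± 0.12, SE, limma adjusted p = 0.0743), and Nfatc1 (0.30). Smarca4 was called with array class as a block (limma adjusted p = 0.0370) and with the trended prior (0.0163). Under each of these 2 of 33 regulators were called, both lower, against 2.08% and 1.74% of all probe sets. Of 6 genes that supply or bind thyroid hormone 0 were called (median -0.00, Dio3 -0.34, Crym -0.18, Dio1 0.17). At an unadjusted limma p under 0.05 there were 0, against 9.6% of all probe sets. Mean signals of Dio1, Dio2, Dio3 and Slco1c1 lay between 6.02 and 6.77, near the floor of 5.64 that the added 50 sets. A change in these genes could be missed there.

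Atrial muscle also expresses Myh6, and the part of atrial RNA in the heavy chain values was not tested. Of 7 measured atrial markers 1 was called, against 1.14% of all probe sets, and the median change was 0.73. It was Dkk3 (0.69 ± 0.15, SE, limma adjusted p = 0.0321), and the call was lost in 9 of the 14 leave-outs of 1 array. Their summed scaled intensity ran from 13737 to 56392 in control arrays (median 22087) and from 28147 to 48427 in diabetic arrays (median 39418), and the groups overlapped. All 7 atrial markers had a higher mean in diabetic arrays. Of these 3 had an unadjusted limma p under 0.05 (Dkk3, Nppa and Gja5), against 9.6% of all probe sets. The atrial light chain gene Myl7 ranged widely within each group, from a scaled intensity of 299.5 to 20199 in control and from 394 to 13166 in diabetic arrays. Mybphl, an atrial binding protein gene, was the dimmest by median, reaching 684 in control and 651 in diabetic arrays. On group alone limma called 0 of 7 markers for ventricular muscle, 8 for skeletal muscle, 7 for smooth muscle, 6 for endothelium, 7 for fibroblasts, 6 for macrophages and leukocytes and 2 for red cells, with 1, 0, 0, 1, 0, 3 and 0 at an unadjusted p under 0.05. With array class as a block the endothelial marker Vwf was called higher (limma adjusted p = 0.0402), against 2.08% of all probe sets called. With the trended prior Myh6, itself on the ventricular list, was called lower, against 1.74% of all. Summed scaled intensities of ventricular markers, which include Myh6, Myl2 and Myl3, ran from 144431 to 216226 in control and from 143258 to 216455 in diabetic arrays. Those of skeletal muscle markers ran from 9909 to 19071 and from 15291 to 33939, of which the Myh1 probe set made up 9049 to 18491 and 14405 to 33206, and each of the other 7 stayed at or below 658. Those of macrophages and leukocytes from 3096 to 4607 and from 3266 to 6464.

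Genes that followed the heavy chains between arrays of 1 group were sought among 12339 probe sets with 1 symbol and a mean signal above the median of all, over deviations from the group means on 14 arrays. For the brighter Myh6 probe set the closest were Zer1 (Pearson r = 0.90), Sord (0.90) and Wsb2 (0.89), and for the brighter Myh7 probe set Cerk (0.84), Bst2 (0.82) and Slfn5 (0.80). These are descriptions of arrays that share class and RNA quality. None of these 6 probe sets was called between the groups (differences from -0.34 to 0.11).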

How the data were processed

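Per the labels, left ventricle RNA of 14 rats was hybridised to 1 array each. The deposited values are linear intensities per probe set; MAS5, RMA, affy and limma are named in the submitters' processing notes, with neither role nor version. RNA was extracted with 1 of 2 kits per the labels' protocols, which do not say which animal had which. Here the 57 array control probe sets were left out, each array was scaled to a trimmed mean of 500 (2% trimmed at each end; factors 1.61 to 8.81), 50 was added, log2 taken and arrays quantile normalised. Values of 31042 probe sets were fitted on group with limma 3.58.1 (R 4.3.3) and adjusted by Benjamini-Hochberg, threshold 0.05. The p-values measure the spread between arrays of 1 animal each, in which animal and array quality cannot be told apart. Intervals are 95%. The heavy chain ratio was tested by exact permutation, two-sided, of the 3432 assignments of arrays to groups. Fits were tested on simulated data. The number of arrays limits the precision.

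Of the probe sets 20826 had 1 gene symbol, 436 several and 9780 none; 20764 of the first matched RefSeq (GRCr8). A gene is represented by its brightest probe set. All members are named, with every called gene of each list and otherwise up to 3 of smallest p. As most alike, 3 probe sets for each heavy chain were taken by Pearson r. Members and lists were chosen with earlier results of these data known. Marker lists covered ventricular, atrial and skeletal muscle, smooth muscle, endothelium, fibroblasts, macrophages and red cells. Array classes were defined from the control probe sets after their values were seen. Same-numbered control and diabetic arrays did not deviate together (correlations from -0.161 to 0.0868), so the numbers were not taken as pairs. Alternatives varied the scaling, offset, variance prior, array weights, signal filter, blocks and arrays included.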

Additional observations from a re-analysis of the deposited data

Results flagged for a closer look

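Myl3 in diabetic replicate 7 had a log2 signal of 14.53, while the other 6 diabetic arrays lay between 14.70 and 14.82. The gap was 0.606 of the range of the group, above Dixon's 95% critical value for 7 samples. It was 1 of 24 groups of values examined in this way, of which chance marks about 5%.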

How the results depend on the processing

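The 4 heavy chain probe sets kept their direction under all alternatives run and with each array left out. Over all probe sets 354 calls became 561 with a larger offset, 540 with the trended and robust prior, 560 with the lower part of the signal range left out, 645 with array class as a block, 189 without the 3 dimmest arrays, 174 at a threshold of 0.01, and 263 to 331 with 1 array left out. Within classes A, B and C limma called 0, 0 and 0, with 2390, 3203 and 2426 at an unadjusted p under 0.05. Class block and trended prior together, added after seeing the data, gave 1331. With the replicate number as a block 142 were called; no control array was closest to its own number, and the ratio was higher in all 7 numbers.

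The changes stayed at -0.22 and -1.22 (brighter and dimmer Myh6), 0.39 and 1.09 (brighter and dimmer Myh7) and -0.16 (Mybpc3) where only the error model changed. Under both added settings limma adjusted p was 0.000192, 0.00327, 5.92e-05, 2.44e-07 and 0.0211 in that order. The brighter Myh7 probe set was also called at the larger offset (0.39, limma adjusted p = 0.0111), with array weights (0.44, 0.0208) and with the lower part left out (0.39, 0.0234), and the dimmer with array weights (1.28, 0.0375) and the beta-actin covariate (1.17, 0.00710); the dimmer of Myh6 was called with that covariate (-1.10, 0.00264). With 1 array left out the changes ran from -0.24 to -0.21, -1.41 to -0.95, 0.35 to 0.43, 0.91 to 1.23, and for Mybpc3 -0.21 to -0.12. The brighter ratio difference ran from 0.58 to 0.66 with 1 array left out, and was 0.39, 0.74 and 0.70 in classes A, B and C, too small to pass a test. The bright Myl2 probe set changed sign with array weights (0.0068), in class A (0.0022), in class B (0.0341), without the 3 dimmest arrays (0.0220) and with control 1, control 5 or diabetic 6 left out (leave-outs ran from -0.0297 to 0.0168); the cause was not tested.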
